A study of Mus musculus with 24 samples.

Results

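The 10 genes described here form the core of the NRF2 antioxidant pathway: Nqo1, Gclc, Gclm, Txnrd1, Srxn1, Osgin1, Hmox1, Gsr, Nfe2l2 and Keap1. They, and the lists of related genes below, were chosen with earlier results of these data known. The shares of all genes beside their counts are therefore a description, not an independent test. Probes of the 10 genes were taken by name, as every non-control probe to which the array design gives 1 of these symbols. This found all 10 genes, through 12 of the 55681 non-control probes, with 2 probes each for Hmox1 and Gsr. 8 of the genes are targets of NRF2, and Nfe2l2 and Keap1 encode NRF2 and the protein that restrains it.

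Primary alveolar type II cells of the mouse, which secrete lung surfactant, were grown for 3 days at an air-liquid interface and then treated. In one experiment, of 16 arrays, the cells received vehicle (the culture medium DMEM) or 100 µM NaHS, a fast donor of hydrogen sulfide (H2S), for 6 h or for 24 h, and the labels give no oxygen level. In the other, of 8 arrays, all cells received the slow H2S donor GYY4137 at 100 µM for 24 h and stood either in 21% O2 (normoxia) or in 85% O2 (hyperoxia). Each of the 6 groups had 4 arrays. The strain, sex and age of the mice are not given in the sources used here. Both oxygen groups carry GYY4137 and no donor-free arrays of that experiment were analysed here, so an effect of GYY4137 cannot be told apart from the experiment. The labels do not say that replicates are separate cultures or animals, so p-values measure only the spread between these samples, which may be technical. In the NaHS experiment the 4 arrays of a group were split evenly between slides 1 and 2. The arrays in 21% O2 were all on slide 3 and those in 85% O2 all on slide 4, so that slide and oxygen cannot be told apart.

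NRF2 is a transcription factor that is made continuously and, in unstressed cells, is bound by KEAP1 and handed to a ubiquitin ligase for destruction. Oxidants and electrophiles modify cysteines of KEAP1, NRF2 then escapes destruction, pairs with a small MAF protein and binds antioxidant response elements in the promoters and enhancers of its targets. The targets make glutathione, reduce quinones, thioredoxin and oxidised peroxiredoxin, and break down heme. H2S donors are known to be able to modify KEAP1, and high oxygen is a known oxidant load on lung epithelium, so these genes allow the fast donor, the slow donor and oxygen to be set side by side.

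A level below is the log2 processed signal of a probe minus the 75th percentile of its array, so that 0 marks a signal at that percentile. Levels of different probes are not compared. A gene was called where its adjusted p in limma was under 0.05 after Benjamini-Hochberg adjustment over all genes of a comparison. All 12 probes lay well above background on all 24 arrays, none of their spots was left out, and 0 spots were saturated. The share of all probes well above background ran from 55.8% to 78.2% between arrays.

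With oxygen, 7 of the 8 targets rose: Nqo1, Srxn1, Osgin1, Gclm, Gclc, Txnrd1 and Gsr were higher in 85% than in 21% O2, by 1.63 to 10.7 times, while Hmox1 was not called. Neither regulator was called. With NaHS, none of the 10 genes was called at 6 h or at 24 h, beside 0% of all 33263 genes and unnamed probes tested there. Among all 34649 genes and unnamed probes tested with oxygen, 15.8% were called and 10.2% were called higher, so the 7 of 10 members called higher are read against that share. The share of genes called ran from 5.98% without replicate 3 in 85% O2 to 19.5% without replicate 1 in 21% O2, and 6 to 7 members were called in these fits. It was 7.41% to 10.6% without replicate 2, 3 or 4 in 21% O2, and 10.1% and 7.14% without replicates 1 and 4 in 85% O2. No member was called lower, beside 5.56% of all genes. The same 7 members were higher without overlap between the groups, beside 14.7% of all genes. The median difference of the 8 targets was 1.47 on the log2 scale, beside 0.066 over all genes. Of all calls with oxygen, 64.8% were higher under this scaling, 51.3% after quantile normalization and 36.9% after median centring, which moved the median of all genes by 0.14. All 7 target genes stayed higher and called under each of these scalings.

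**Figure D1:**
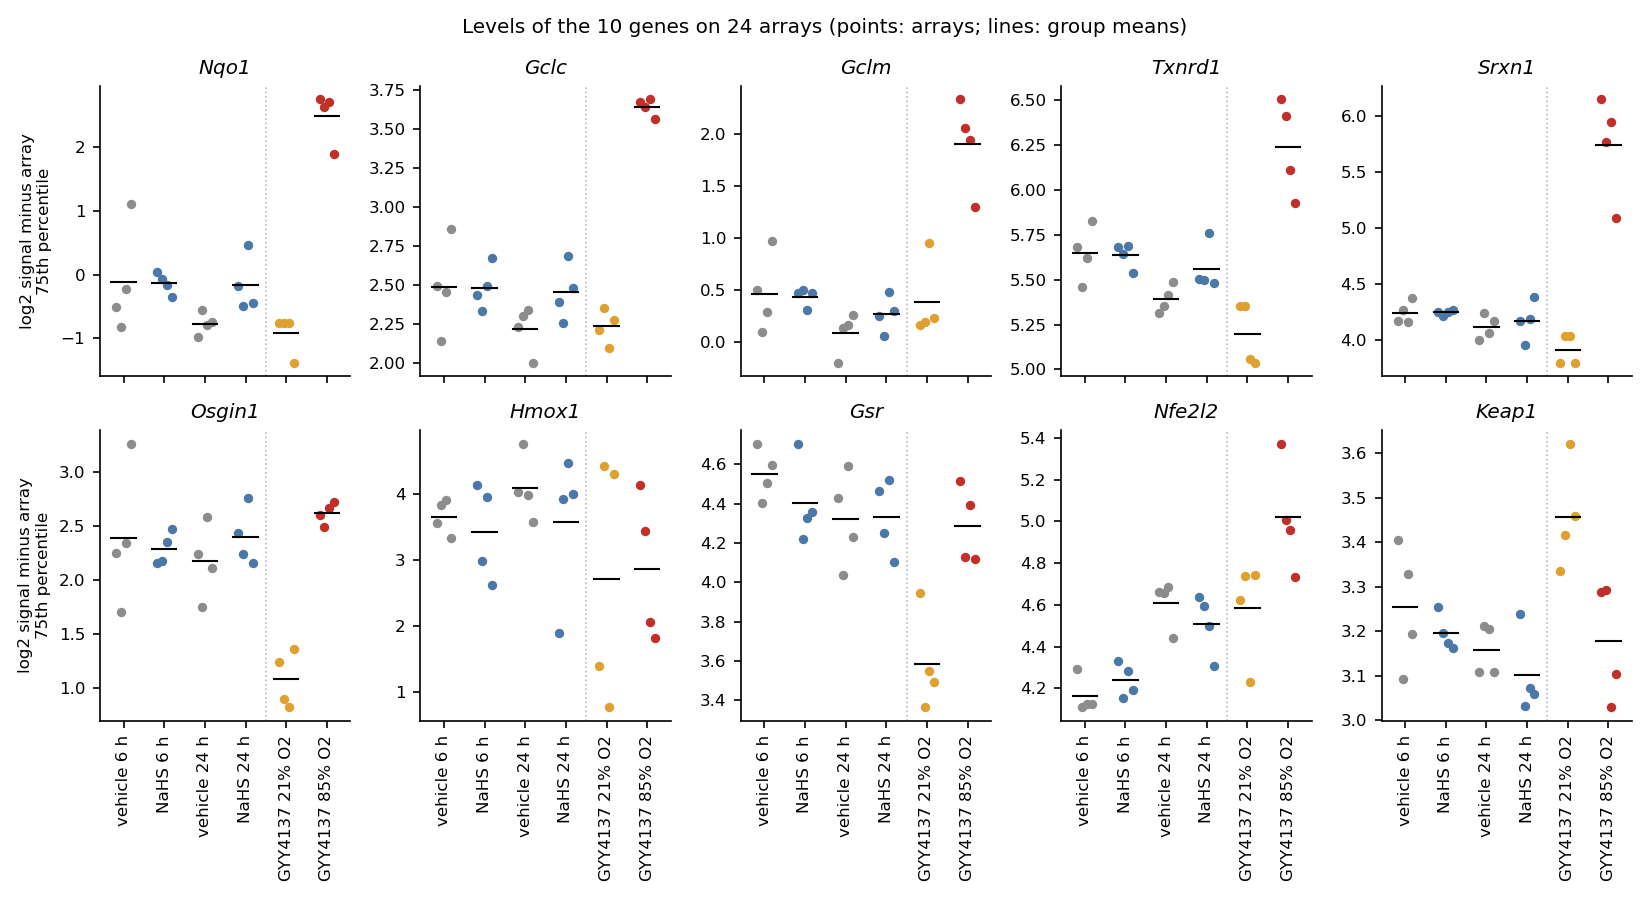
Levels of the 10 genes on the 24 arrays, as log2 processed signal minus the 75th percentile of the array, with 1 panel a gene, a point for each array and a line at each group mean; each panel has its own axis and a dotted line parts the 2 experiments. All 4 arrays in 85% O2 lie above the 20 other arrays for Nqo1, Gclc, Gclm, Txnrd1 and Srxn1, while Osgin1 and Gsr are set apart by low values in 21% O2.

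Nqo1 encodes the quinone reductase that is the classic NRF2 target. Its levels in 21% O2 were -0.76, -0.76, -0.77 and -1.39, and in 85% O2 they were 2.76, 2.63, 2.71 and 1.89. The groups did not overlap, and in both of them replicate 4 was the lowest. The log2 difference was 3.42 ± 0.24 (SE, n = 4 and 4; adjusted p = 0.0014), a fold of 10.7 with a 95% interval from 7.35 to 15.5. By size of rise, Nqo1 was at rank 4 of the 34649 genes and unnamed probes tested.

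In the NaHS experiment Nqo1 differed far less between groups. After 6 h its levels were -0.51, -0.83, -0.23 and 1.12 with vehicle and 0.04, -0.07, -0.16 and -0.35 with NaHS. After 24 h they were -0.98, -0.57, -0.79 and -0.75 with vehicle and -0.19, -0.49, 0.47 and -0.45 with NaHS. At 6 h the NaHS arrays lay inside the range of the vehicle arrays, which was stretched by vehicle replicate 4, whereas at 24 h all NaHS arrays lay above all vehicle arrays. Such separation upwards was seen in 0.938% of all genes at 24 h, and Nqo1 was the 1 member that showed it. The log2 difference at 24 h was 0.61 ± 0.34 (SE; 95% interval -0.12 to 1.34; adjusted p = 0.9998), which limma did not call. It was 1.03 within slide 1 and 0.19 within slide 2. At 6 h the difference was -0.02 ± 0.34, with 0.31 within slide 1 and -0.35 within slide 2.

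Vehicle replicate 4 at 6 h stood apart in other ways too. It was the highest array of its group for 6 of the 10 members, namely Nqo1, Gclc, Gclm, Txnrd1, Srxn1 and Osgin1. It had the highest summed level (log2 of the summed linear signals) of the club cell markers in its group, 7.82 against 4.76 to 6.33. For the alveolar type II markers it was highest too, 6.84 against 5.87 to 6.09, as for type I and macrophage markers. For smooth muscle, endothelial and ciliated cell markers it was the lowest of its group. NaHS replicate 4 at 6 h was likewise the highest of its group for club cell (6.30) and type II markers (7.34). That array was the highest of its group for 3 members and the lowest for 4, Nqo1 (-0.35) among them. The part of cell makeup in the 6 h levels was not tested. Without vehicle replicate 4 at 6 h, still 0 members were called with NaHS at 6 h.

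Gclc and Gclm encode the catalytic and the modifier subunit of glutamate-cysteine ligase, which makes the first intermediate of glutathione. Gclc was at 2.22, 2.36, 2.10 and 2.27 in 21% O2 and at 3.68, 3.64, 3.69 and 3.57 in 85% O2. These groups were tight and did not overlap. The log2 difference of Gclc was 1.41 ± 0.11 (adjusted p = 0.0014). Its spread within groups, an SD of 0.09, was at the 2.29th percentile of all genes in that experiment.

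Gclm was at 0.16, 0.19, 0.95 and 0.23 in 21% O2 and at 2.33, 2.06, 1.94 and 1.29 in 85% O2. Replicate 3 was the high one in 21% O2 and replicate 4 the low one in 85% O2, and the groups still did not overlap. The log2 difference of Gclm was 1.52 ± 0.26 (adjusted p = 0.010). With NaHS at 24 h the differences were 0.24 ± 0.15 for Gclc and 0.18 ± 0.17 for Gclm. With NaHS at 6 h they were -0.0044 ± 0.15 and -0.03 ± 0.17, and neither gene was called at either time.

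Txnrd1 encodes cytosolic thioredoxin reductase, a selenoprotein that keeps thioredoxin reduced. Txnrd1 was at 5.36, 5.35, 5.06 and 5.04 in 21% O2 and at 6.505, 6.41, 6.11 and 5.93 in 85% O2, with no overlap. The rise was 1.04 ± 0.16 (log2; 2.05-fold; adjusted p = 0.0076). Srxn1 encodes sulfiredoxin, which repairs overoxidised peroxiredoxins. Srxn1 was at 3.80, 4.04, 4.04 and 3.80 in 21% O2 and at 6.15, 5.77, 5.95 and 5.09 in 85% O2. Here too replicate 4 was the lowest of the 85% O2 arrays and the groups were apart. The rise was 1.82 ± 0.22 (log2; 3.54-fold; adjusted p = 0.0036).

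Neither gene was called with NaHS. The 95% interval at 24 h ran from -0.04 to 0.38 for Txnrd1 and from -0.16 to 0.27 for Srxn1. At 6 h it ran from -0.22 to 0.20 for Txnrd1 and from -0.21 to 0.21 for Srxn1. A change of Srxn1 as large as that with oxygen lies outside these intervals.

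Osgin1 encodes an oxidative stress-induced growth inhibitor. Osgin1 was at 1.25, 0.90, 0.82 and 1.36 in 21% O2 and at 2.60, 2.49, 2.67 and 2.73 in 85% O2. The rise of 1.54 ± 0.15 (log2; 2.91-fold; adjusted p = 0.0017) was between groups that did not overlap. Unlike the previous 5 genes, the level in 85% O2, a mean of 2.62 ± 0.10 (SD, n = 4), overlapped those of the NaHS experiment, whose group means ran from 2.18 to 2.40. The low group was 21% O2 with GYY4137, where all 4 arrays lay below the 20 others. That position was shared by 0.5% of all genes.

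Gsr encodes glutathione reductase, which recycles oxidised glutathione with NADPH. On its brighter probe Gsr was at 3.94, 3.36, 3.55 and 3.49 in 21% O2 and at 4.51, 4.13, 4.39 and 4.12 in 85% O2, without overlap. The difference was 0.70 ± 0.16 (log2; 1.63-fold; adjusted p = 0.026). Leaving out any of replicates 2, 3 and 4 in 21% O2 or of replicates 1 and 3 in 85% O2 ended this call, with adjusted p between 0.0584 and 0.0782, while the difference stayed between 0.63 and 0.69. The dimmer Gsr probe was at 2.88, 2.62, 2.76 and 2.60 in 21% O2 and at 3.10, 3.28, 3.22 and 3.12 in 85% O2. Its difference was 0.47 ± 0.11 (adjusted p = 0.029 in the fit of all probes). The probes disagreed on the level elsewhere: on the brighter one, the 21% O2 arrays lay below the 20 others, while on the dimmer one their mean of 2.71 stood beside 2.77 in vehicle at 24 h. The Gsr probes lie close together, at chr8:34808488-34808547 and chr8:34808413-34808472 of mm9 on the plus strand.

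**Figure D2:**
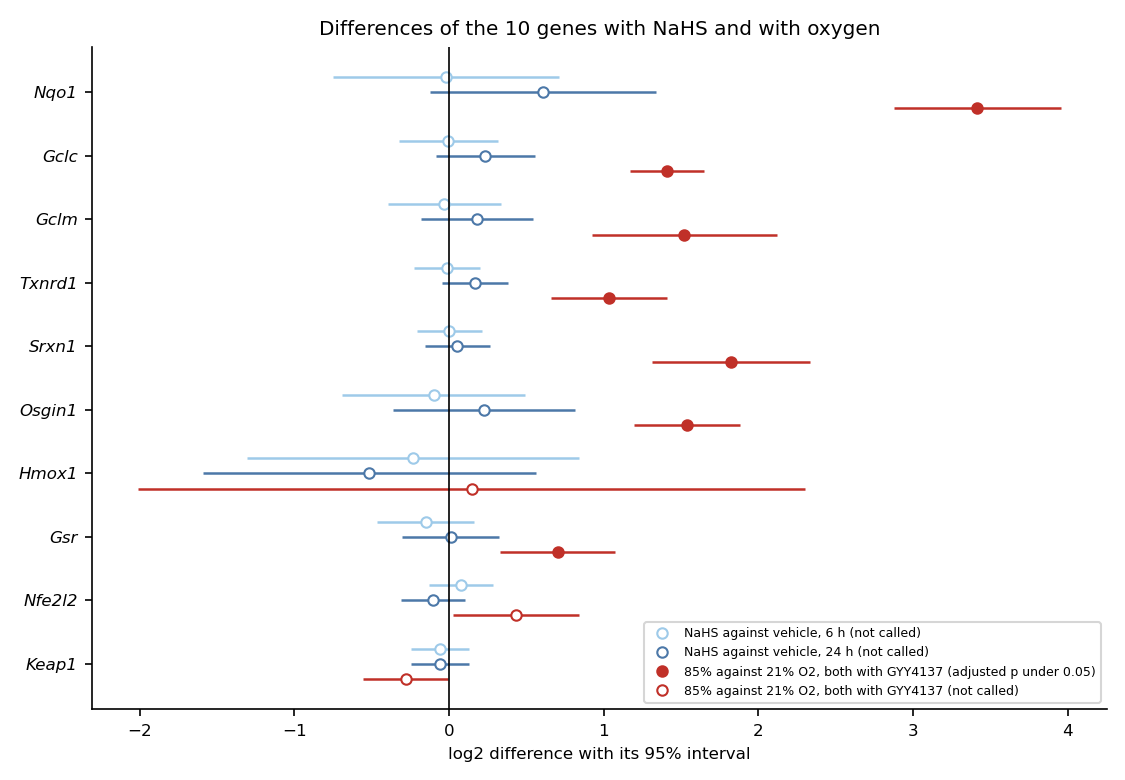
Log2 differences of the 10 genes with their 95% intervals: NaHS against vehicle at 6 h (light blue), at 24 h (dark blue) and 85% against 21% O2, both with GYY4137 (red). Filled points are called at an adjusted p under 0.05, which holds for 7 red points and for no blue one; the widest intervals are those of Hmox1.

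Hmox1, which encodes the inducible heme oxygenase, was the 1 target not called with oxygen. Its levels in 21% O2 were 1.39, 4.42, 0.76 and 4.31, and in 85% O2 they were 4.15, 3.45, 2.05 and 1.82. Replicates 2 and 4 were high and replicates 1 and 3 low in 21% O2, and the 85% O2 arrays lay between these. The log2 difference was 0.15 ± 0.94 (95% interval -2.01 to 2.30; adjusted p = 0.92), so that neither a rise nor a fall of 4-fold lies outside the interval. The SD of Hmox1 within groups was 1.57 in this experiment, at the 99.65th percentile of all genes, beside a median SD of 0.28. The other 9 members had SDs between 0.09 and 0.41.

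A second probe, at another place of the gene, gave the same order of arrays in 85% O2 and the same pair of high arrays in 21% O2. It is shown because its agreement bears on whether the spread belongs to 1 probe. It lies at chr8:77620797-77620856 of mm9 on the plus strand, and the brighter one at chr8:77624207-77624266.
Hmox1 second probe: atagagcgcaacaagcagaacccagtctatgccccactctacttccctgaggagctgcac
On this probe the levels in 21% O2 were -0.60, 0.98, -0.66 and 1.34 and those in 85% O2 were 1.19, 1.12, 0.34 and 0.29. Its log2 difference was 0.47 ± 0.49 (adjusted p = 0.53 in the fit of all probes). Replicate 4, high for Hmox1 in 21% O2, was the lowest array of that group for Nqo1.

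In the NaHS experiment Hmox1 on its brighter probe was at 3.56, 3.84, 3.91 and 3.34 with vehicle and 4.14, 2.99, 3.96 and 2.62 with NaHS at 6 h. At 24 h it was at 4.03, 4.77, 3.98 and 3.57 with vehicle and 1.89, 3.93, 4.47 and 4.01 with NaHS. The groups overlapped at both times, and the low array at 24 h was NaHS replicate 1. The differences were -0.23 ± 0.50 at 6 h and -0.51 ± 0.50 at 24 h, and without NaHS replicate 1 the 24 h difference was 0.047. At 6 h it was 0.32 within slide 1 and -0.79 within slide 2. The 95% interval at 24 h, -1.59 to 0.56, holds a fall of 2-fold but no rise of that size.

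**Figure D3:**
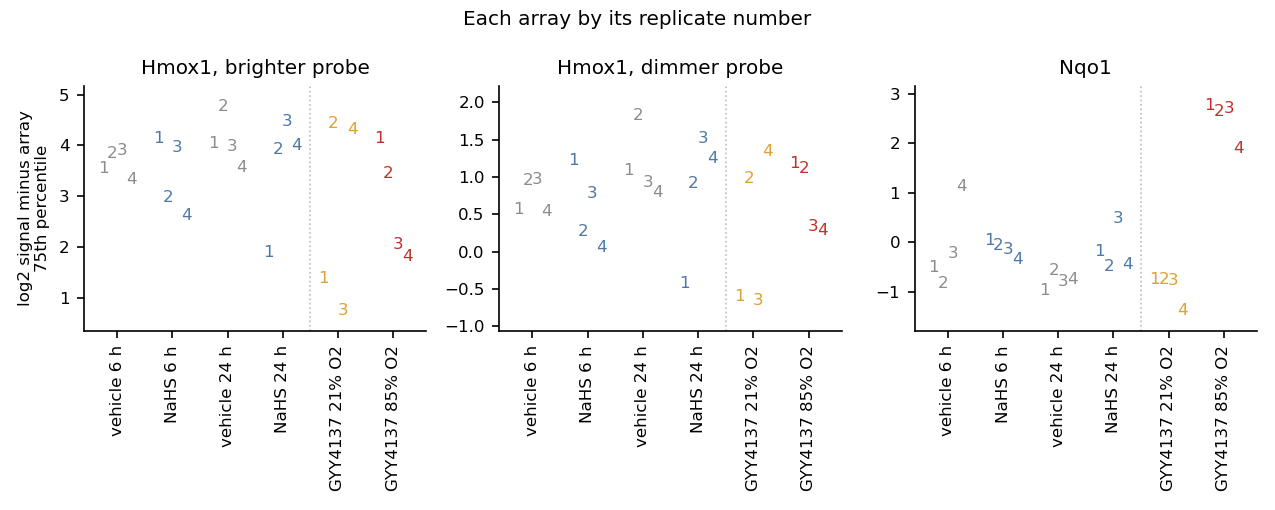
Levels (log2 processed signal minus the 75th percentile of the array) of Hmox1 on its 2 probes and of Nqo1, with each array drawn as its replicate number, by group; the axes differ and a dotted line parts the 2 experiments. In 21% O2 replicates 2 and 4 are high and 1 and 3 low on both Hmox1 probes, while Nqo1 parts 21% from 85% O2 on every array.

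Nfe2l2, the gene of NRF2 itself, was at 4.62, 4.74, 4.23 and 4.74 in 21% O2 and at 5.37, 5.01, 4.96 and 4.73 in 85% O2. The lowest array in 85% O2, replicate 4, lay just inside the 21% O2 range, and the other 3 lay above it. The difference of 0.43 ± 0.18 was not called (log2; 95% interval 0.03 to 0.84; adjusted p = 0.12). Keap1 was at 3.33, 3.42, 3.62 and 3.46 in 21% O2 and at 3.29, 3.29, 3.03 and 3.10 in 85% O2. All 85% O2 arrays lay below all 21% O2 arrays, which was the case in 8.33% of all genes. The Keap1 difference of -0.28 ± 0.12 was not called either (adjusted p = 0.14). After median centring it was -0.42 with an adjusted p of 0.046.

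With NaHS neither regulator was called, and the intervals were narrow. At 24 h the interval ran from -0.31 to 0.11 for Nfe2l2 and from -0.25 to 0.13 for Keap1. At 6 h it ran from -0.13 to 0.29 for Nfe2l2 and from -0.24 to 0.13 for Keap1.

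For NaHS as a whole, the 10 members had differences between -0.23 and 0.08 at 6 h, and the 95% interval lay within 2-fold for 9 of them, all but Hmox1. At 24 h the differences lay between -0.51 and 0.61, and the interval was within 2-fold for 8, all but Nqo1 and Hmox1. At each time 0% of the 33263 genes and unnamed probes of that experiment were called by limma, with an unadjusted p under 0.05 for 196 genes (0.589%) at 6 h and 736 (2.21%) at 24 h, none of them a member. With the slide as a block these numbers were 631 and 2904, and with the replicate number as a block 736 and 3167, still with 0 genes called after adjustment. At 24 h 7 of the 8 targets had a positive difference, with a median of 0.18 beside -0.0013 over all genes. At 6 h 1 of 8 had one, with a median of -0.02. The test of the change between these times called 0 members and 0% of all genes. Before adjustment 1.07% of genes had a p under 0.05 in that test, and no member was among these. That is 356 genes, against 1560 with the slide block and 1642 with the replicate block.

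The oxygen difference was set against the NaHS difference at 24 h in 1 fit of all 24 arrays. Here 6 of the 10 members were called, all with the larger rise under oxygen, beside 5.78% of 32208 genes called and 2.63% called in that direction. The excess was 2.81 ± 0.45 for Nqo1 (log2; adjusted p = 0.00044), 1.77 ± 0.22 for Srxn1 (adjusted p = 4.457e-05) and 1.17 ± 0.18 for Gclc (adjusted p = 0.00035). Gclm had an excess of 1.34 ± 0.30, Osgin1 of 1.31 ± 0.34 and Txnrd1 of 0.87 ± 0.17. Gsr (0.69 ± 0.21; adjusted p = 0.064) and Nfe2l2 (0.54 ± 0.18; adjusted p = 0.10) were not called, and neither were Hmox1 and Keap1. With the replicate number as a block Gsr was called (adjusted p = 0.0048). With median centring 0 members were called and 0.22% of all genes, although the excess stayed near its size, at 2.66 for Nqo1, 1.62 for Srxn1, 1.19 for Gclm and 1.16 for Osgin1. The Osgin1 call was lost without vehicle replicate 3 or NaHS replicate 4 at 24 h, or without replicate 2 or 3 in 21% O2, with adjusted p up to 0.0549.

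The slow donor in 21% O2 can only be set beside vehicle at 24 h with no test, since experiment, slide and donor cannot be told apart. In 7 of the 10 members the arrays of these groups overlapped. Osgin1 (mean 1.08 beside 2.18) and Gsr on its brighter probe (3.59 beside 4.32) were lower without overlap, as were 6.46% of all genes. Keap1 (3.46 beside 3.16) was higher without overlap, as were 15% of all genes. For Nqo1 the means were -0.92 ± 0.31 with GYY4137 in 21% O2, -0.77 ± 0.17 with vehicle and -0.16 ± 0.44 with NaHS (SD, n = 4 each).

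The order of the 6 group means was alike for Nqo1, Gclc, Gclm, Txnrd1 and Srxn1 at its top. In these 5 genes 85% O2 was highest and all 4 of its arrays lay above the 20 others, a position held by 6.08% of all genes. Below it, neighbours in the order overlapped in every case but 1, NaHS at 24 h above vehicle at 24 h for Nqo1. Hmox1 had its highest mean in vehicle at 24 h (4.09 ± 0.50) and its lowest in 21% O2 (2.72 ± 1.92), and every neighbouring pair overlapped. Nfe2l2 had its lowest means at 6 h, 4.16 ± 0.09 with vehicle and 4.24 ± 0.08 with NaHS.

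Time in culture was compared within vehicle and within NaHS. No member was called in either, beside 0.61% of all genes with vehicle and 0.0271% with NaHS. Nfe2l2 came closest. With vehicle it was at 4.29, 4.11, 4.12 and 4.12 at 6 h and at 4.66, 4.66, 4.68 and 4.44 at 24 h. All 24 h arrays lay above all 6 h arrays, as in 3.86% of genes. The difference was 0.45 ± 0.10 (log2; 1.37-fold; adjusted p = 0.055). With the slide as a block, the adjusted p was 0.021 and 2.15% of all genes were called. With the replicate number as a block, it was 0.020 with 2.68% called, and among the members only Nfe2l2 was called in either fit. In the fit of all probes the adjusted p was 0.046, with 0.92% of probes called. The difference was 0.47 within slide 1 and 0.43 within slide 2. With NaHS it was 0.27 ± 0.10 (adjusted p = 0.50).

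Of the targets, 7 of 8 had a negative difference between 24 h and 6 h with vehicle, with a median of -0.24. Txnrd1 (-0.26 ± 0.10; adjusted p = 0.31) and Gclm (-0.38 ± 0.17; adjusted p = 0.43) had the smallest p among them. In the same comparison club cell markers had a median of -2.79 over 7 genes, with 1 called lower and none higher, and smooth muscle markers a median of 0.82 over 8 genes, with 1 called higher. Of the alveolar type II markers Sftpa1 was called lower (-3.14), while 3 of 11 had a positive difference and the list median was -0.12. Of the fibroblast markers Thy1 was called higher (1.16), with 6 of 10 positive and a list median of 0.10. Of the macrophage markers 11 of 12 had a positive difference (median 0.80). The part of cell makeup in the time differences was not tested. In such bulk RNA, fewer cells of a type and less RNA per cell cannot be told apart.

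The wider pathway was read from lists of genes around the members. Among 16 other genes of glutathione metabolism, 5 rose with oxygen and 0 fell, beside 10.2% of all genes called higher and 5.56% called lower. Gpx2, a glutathione peroxidase of epithelia, rose by 2.08 ± 0.26 (log2; adjusted p = 0.0038), the transporter gene Abcc1 by 0.77 ± 0.12 and the glutathione synthetase gene Gss by 0.63 ± 0.12. Ggct (0.75 ± 0.17) and Gpx1 (0.43 ± 0.12) were also called, but Gpx1 kept its call in only 5 of 16 alternatives. The median of the 16 was 0.41, beside 0.066 over all genes.

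Of 16 genes of NADPH supply and of quinone or carbonyl detoxification, 7 rose and 0 fell, with a median of 0.31, against the same shares and median of all genes. Pgd, a pentose phosphate enzyme that makes NADPH, rose by 1.28 ± 0.14 (adjusted p = 0.0024) and G6pdx, which starts that pathway, by 0.89 ± 0.12. The carbonyl reductase gene Cbr3 rose by 1.70 ± 0.30, the epoxide hydrolase gene Ephx1 by 1.19 ± 0.26 and the glutathione transferase gene Gsta4 by 2.41 ± 0.54. Cbr3, Pgd and G6pdx kept their calls in all 16 alternatives, and Ephx1 and Gsta4 lost theirs in 2 and 4 of them.

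Of 11 genes of heme and iron handling, 5 rose, with a median of 0.46, although Hmox1 itself was not called. The heme transporter gene Slc48a1 rose by 1.31 ± 0.22, the biliverdin reductase gene Blvrb by 1.05 ± 0.18 and Slc40a1, the gene of the iron exporter ferroportin, by 1.23 ± 0.24. Tfrc (1.16 ± 0.30) and Alas1 (0.46 ± 0.11) were called too, and only 3 genes of the list were called under median centring and with the replicate number as a block. Of 14 thioredoxin and peroxiredoxin genes, 2 rose, Prdx1 by 0.79 ± 0.13 and Txnrd3 by 0.50 ± 0.12, and Prdx4 fell by 0.46. These counts are near the shares of all genes called, 10.2% higher and 5.56% lower, and the median of that list was -0.04. Txnrd3 lost its call in 9 and Prdx4 in 8 of 16 alternatives, with Prdx4 as near 0 as -0.10 in one of them.

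Among 16 partners and regulators of NRF2, the small MAF gene Mafk rose by 0.62 ± 0.12 and Dpp3, whose protein binds KEAP1, by 0.72 ± 0.13, with a list median of 0.11. A count of 2 among 16 is near the 10.2% of all genes called higher. Of 6 listed targets of the aryl hydrocarbon receptor, which shares targets with NRF2, 4 were bright enough to be tested. Cyp1a1 and Cyp1a2 were not, as they lay above background on no array in 21% O2 and on some but not all in 85% O2. Cyp1a1 was also above background on some arrays with vehicle at 6 h. Of the 4, Aldh1a3 was called higher, by 1.52 ± 0.27, a count too small to read against the 10.2% of all genes. Of 5 heat shock targets, none rose and Hsph1 was called lower, with a log2 difference of -0.77 ± 0.19, beside 5.56% of all genes called lower. Hsph1 lost this call in 7 of 16 alternatives. With NaHS, 0 genes of any of these lists were called at 6 h or 24 h, beside 0% of all genes.

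**Figure D4:**
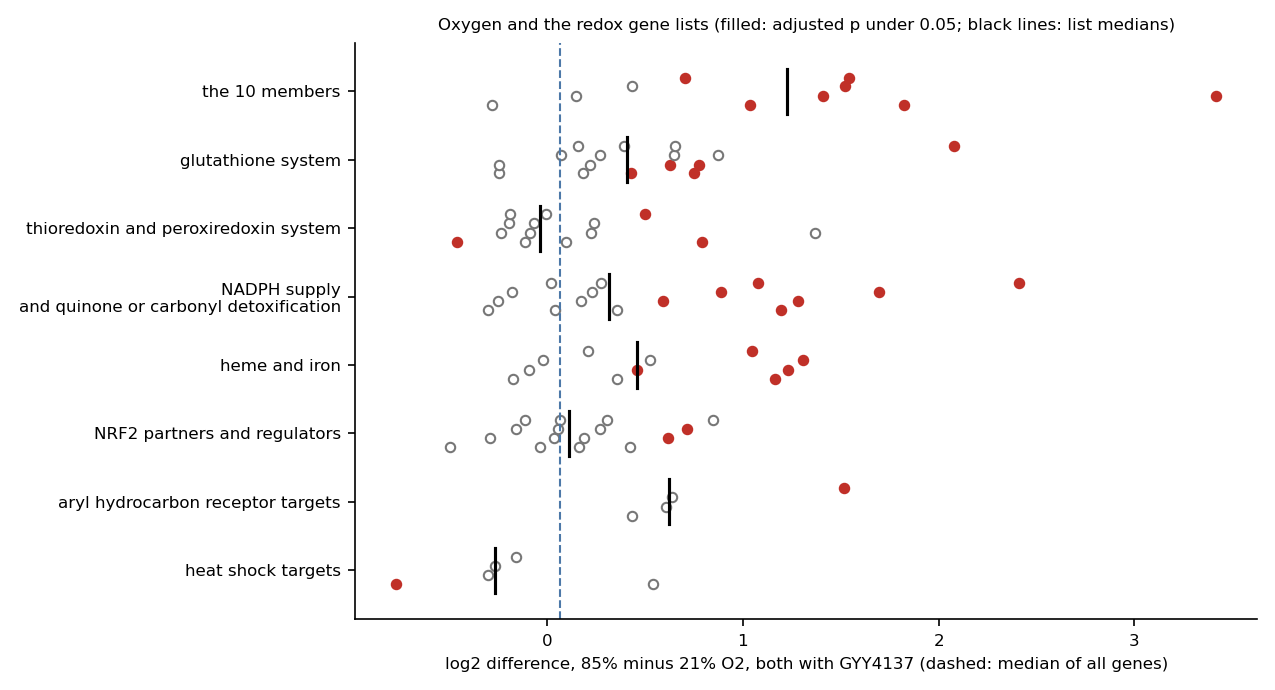
Log2 differences between 85% and 21% O2, both with GYY4137, for the 10 members and for 7 lists of related genes, with a point for each gene (filled where the adjusted p is under 0.05), a black line at the median of each list and a dashed line at the median of all genes, 0.066. The members' median lies at 1.22, and the lists' medians run from -0.26 for heat shock targets to 0.62 for aryl hydrocarbon receptor targets.

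Genes whose levels followed the targets most closely were sought by Pearson's r with the mean of the 8 targets. Over the 8 arrays of the GYY4137 experiment these were Mn1 (r = 0.99), Sugp1 (0.988), Uqcc3 (0.987), Prdx1 (0.983) and Slc25a44 (0.982). The r was 0.978 for Srxn1 and 0.303 for Hmox1, which are themselves part of that mean, so these values are not like the others. For Nfe2l2 and Keap1, which are not part of it, r was 0.866 and -0.694. Each oxygen group of these arrays shares a slide. Over the 16 arrays of the NaHS experiment with slide means taken out, the closest were Ccdc113 (r = 0.879), Pax1 (0.873), Dnah6 (0.849), Prl2c5 (0.839) and Cfap53 (0.828). Ccdc113, Dnah6 and Cfap53 are genes of motile cilia.

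Cell markers were checked beside these results. Of 12 alveolar type II markers, 9 or 10 lay well above background on all 4 arrays of each group, and Slc34a2 did so on no array of any group but the 21% O2 one. Of the markers tested with oxygen, 1 of 10 was called lower (Lamp3, -1.04 ± 0.14), while 5 of 10 had a positive difference (median -0.04). The summed level of the list ran from 5.53 to 6.08 in 21% O2 and from 5.21 to 5.58 in 85% O2. All 10 fibroblast and all 8 smooth muscle markers were above background on each array in 21% and 85% O2. The summed fibroblast level ran from 9.86 to 10.09 in 21% O2 and from 9.25 to 9.89 in 85% O2. For smooth muscle it ran from 10.26 to 10.68 and from 9.93 to 10.45. These sums are of linear signals, so the brightest probes of a list weigh most. Sums of different lists rest on different probes, so they do not measure shares of cells. With oxygen 1 fibroblast marker (Thy1, -1.05 ± 0.16) was called lower. Of the fibroblast list 0 of 10 had a positive difference (median -0.40), and of the smooth muscle list 1 of 8 (median -0.22). Of 6 ciliated cell markers 2 were called higher, Foxj1 by 1.46 ± 0.34 and Tppp3 by 0.77 ± 0.19, beside 10.2% of all genes. Foxj1 lost its call in 3 and Tppp3 in 8 of 16 alternatives. Only 3 of the 6 had a positive difference. The mean summed level of the ciliated list was 7.48 in 21% O2 and 7.25 in 85% O2. Ccdc39 lay above background on no array in 21% O2. Of 8 smooth muscle markers Notch3 was called higher (1.36 ± 0.24) and Des lower (-1.29 ± 0.25). Of 6 club cell markers Muc5b was called lower (-0.96 ± 0.17), while 4 of the 6 had a positive difference and the list median was 0.59. Of 7 endothelial markers Tek was called higher (1.17 ± 0.28, a call lost in 8 of 15 alternatives). Of 10 alveolar type I markers none was called. None of 12 macrophage markers was called, and the summed level of that list ran from 2.854 to 3.462 in 21% O2 and from 2.996 to 4.152 in 85% O2, with 9 of the 13 on the array above background on every array of either group and Spi1 on none in 21% O2. The part of these markers in the members' rise was not tested.

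Promoter sequence was at hand for 7 of the 10 members, as 9 RefSeq windows on GRCm38.p6 from 250 bases before to 50 after a gene start. They were searched on both strands for the core of the antioxidant response element, TGACNNNGC or TGAGNNNGC. A match lay in 5 of the 9 windows, of Gclm, Txnrd1, Srxn1, Osgin1 and Nfe2l2, against 27.8% of all 32851 windows. The form TGAGTCAGC, which also holds the AP-1 motif TGAGTCA, lay in the windows of Srxn1 and Osgin1 and in 0.414% of all windows. The windows of Nqo1 and Keap1 held neither form. The 120 bases before the start are printed for 3 genes that rose with oxygen and had a match there, with the match in capitals. The match lies on the gene's own strand for Srxn1, from -45 to -37 counted from the start, and on the opposite strand for Osgin1 (-99 to -91) and Txnrd1 (-92 to -84).
Srxn1, chr2:152105404-152105523, plus strand: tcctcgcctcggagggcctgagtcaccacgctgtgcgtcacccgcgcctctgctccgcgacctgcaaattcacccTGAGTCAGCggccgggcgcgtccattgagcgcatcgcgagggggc
Osgin1, chr8:119437027-119437146, plus strand: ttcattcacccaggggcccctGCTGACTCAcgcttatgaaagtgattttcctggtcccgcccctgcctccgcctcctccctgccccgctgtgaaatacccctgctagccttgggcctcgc
Txnrd1, chr10:82859086-82859205, plus strand: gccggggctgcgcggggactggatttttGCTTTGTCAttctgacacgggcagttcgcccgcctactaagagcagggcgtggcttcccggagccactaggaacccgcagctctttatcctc
Txnrd1 has 3 windows, of which this one held a match. These are matches of letters, not measured binding.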

How the data were processed

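Total RNA of 24 samples was hybridised to 1-colour (Cy3) Agilent mouse arrays. The deposited intensities were made by the authors with Agilent Feature Extraction 10.7.3.1, per the submitters' processing notes, as background-subtracted processed signals without scaling between arrays. A value table deposited by the authors, on the log2 scale and with unstated steps, served as an alternative. Probe coordinates are on mm9, per the file headers.

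From log2 processed signals the 75th percentile of each array was subtracted. Probes well above background on at least 4 arrays of an experiment were kept, and the probe of highest mean stood for a gene. Group means were fitted per experiment in limma 3.58.1 under R 4.3.3. A self-test on simulated data was set to stop at any wrong sign among the called changes, and it ran to its end. That does not show how many true changes would be called. The noise of the self-test was independent between arrays, so it does not cover slide or replicate effects.

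Replicate numbers deviated together in the GYY4137 experiment (correlation of deviations 0.183 to 0.257). In the NaHS experiment, where a number implies a slide, the correlation was 0.537 to 0.754. With slide means taken out there it was -0.172 to 0.275, over 0.1 in 10 of 24 pairs. These 24 pairs are not independent. Each group had 2 arrays on a slide, so each value appears under both replicates of that slide. Block values stand where they change a call. The members and lists were chosen with earlier results of these data known. Named were all members and, from each list, up to 5 called genes of smallest p, up to 2 per marker list, and the 5 genes most like the targets.

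Python 3.11.15 (numpy 2.4.6, pandas 2.3.3, matplotlib 3.10.9) and the R package data.table (version 1.17.8) were used.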

Additional observations from a re-analysis of the deposited data

Results flagged for a closer look

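Of 72 sets of 4 arrays (12 probes in 6 groups), 7 held an array set apart, with a gap to its nearest neighbour that was past Dixon's critical share of the set's range. Chance gives about 1 in 20. In Nqo1, replicate 4 was set apart as the lowest array in both oxygen groups, at -1.39 below -0.77 to -0.76 in 21% O2 (share of the range 0.978) and at 1.89 below 2.63 to 2.76 in 85% O2 (0.856). In 85% O2 this array was the lowest of its group for 8 of the 10 members. Gclm was set apart on replicate 3 in 21% O2, at 0.95 above 0.16 to 0.23 (0.911), and on replicate 3 with NaHS at 6 h, at 0.31 below 0.47 to 0.50 (0.836). Txnrd1 was high on replicate 3 with NaHS at 24 h, at 5.76 above 5.48 to 5.50 (0.928). Nfe2l2 was high on replicate 1 with vehicle at 6 h, at 4.29 above 4.11 to 4.12 (0.918), and low on replicate 4 with vehicle at 24 h, at 4.44 below 4.66 to 4.68 (0.898).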

How the results depend on the processing

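The members called with oxygen numbered 7, and 6 to 7 when 1 array was left out. The oxygen excess over NaHS called 6, and 5 to 7 when 1 array was left out, but 0 after median centring, where Nqo1 had 2.66 against 2.81 (adjusted p = 0.063) and Srxn1 1.62 against 1.77 (adjusted p = 0.26); the cause was not tested. For 24 h against 6 h in vehicle 0 members were called, and 1, Nfe2l2, with every array required above background, with the slide block, with the replicate block and in the fit of all probes; 0 were called when 1 array was left out. NaHS called 0 at 6 h, at 24 h and in the change between these times under every alternative, and so did 24 h against 6 h in NaHS. The replicate block changed 1 other call of a member, Gsr in the oxygen excess (adjusted p = 0.0048), where 7 alternatives called Gsr and 3 called Nfe2l2. No called member difference changed sign, and 72 values of uncalled ones did, out of 1484. Over all genes, the vehicle time comparison called 203, 50 with no filter on dim probes, 121 with probes averaged, 1 with median centring, 776 with normexp, 596 with every array above background, 714 with the slide block, 890 with the replicate block 0 with only the compared groups in the fit, and 6 (without vehicle 24 h replicate 1) to 322 (without vehicle 6 h replicate 2) when 1 array was left out. For 24 h against 6 h in NaHS they numbered 9, 2 with quantile normalization or the deposited table, 59 with every array above background, 33 with the slide block, 35 with the replicate block and 0 with median centring, with no filter on dim probes or with only the compared groups. The oxygen excess called 1862 genes, 71 with median centring and 3397 with normexp. All 12 probes were well above background on every array. In the experiment with the oxygen groups, the SD of Hmox1 within groups was 1.57, beside a median of 0.28 over all genes. How far this spread, or the 4 arrays per group, limited the calls was not tested. Slide and oxygen cannot be told apart in the oxygen comparison under any of these alternatives.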
